A study of Mus musculus with 53 samples.

Results

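The response of the proximal colon of BA mice to microbial depletion was measured by bulk RNA-seq at day 30 after induction, by comparing the 5 libraries of antibiotic-treated BA mice with the 5 libraries of untreated BA mice. These 10 libraries, of 53 in the series, were chosen by their labels alone. BA mice carry VilCreER, Braf V600E/+ and Alk5 fl/fl on a mixed C57BL/6J background of at least N6. Tamoxifen, given at 6 to 12 weeks of age, switches on Cre under the villin promoter, so that oncogenic BRAF is expressed and the TGFβ receptor gene Tgfbr1 (Alk5) is lost in the epithelium and not in the stroma. Both groups share these alleles and the tamoxifen. For some genes, levels are also given for 4 day-30 libraries labelled wild type, a term the study uses for VillinCreER controls. The treated mice drank ampicillin at 1 g/L, neomycin trisulphate at 1 g/L, vancomycin at 500 mg/L and metronidazole at 1 g/L from the day after induction. Both sexes were used in the study, but transcripts of the Y-linked gene Ddx3y were present in all 10 libraries compared here. Whole pieces of colon were sequenced, with muscle and stroma present beside the epithelium. The study describes its replicates as independent animals.

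The gut microbiota supplies the colonic epithelium with short-chain fatty acids, secondary bile acids and tryptophan metabolites, several of which are ligands of nuclear receptors that control enzymes of drug and lipid metabolism. Microbial products also keep up a low tone of interferon signalling in the gut wall and drive the class switch and survival of IgA plasma cells. Ampicillin, neomycin, vancomycin and metronidazole together act on most gut bacteria, and the drugs themselves reach the tissue as foreign compounds, so that drug and microbe effects cannot be told apart in this design.

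The plainest changes were a loss of transcripts for several xenobiotic enzymes, for the flagellum-binding protein Lypd8 and for several interferon-stimulated genes, and a gain of transcripts for enzymes of cholesterol synthesis. Cyp2c55 fell by 3.08 on the log2 scale, Lypd8 fell by 1.30 and Irf7 fell by 1.605, while 12 of the 25 genes of cholesterol synthesis rose. No immunoglobulin constant or variable gene passed the test, 1 of 14 MHC class II genes did, and no smooth muscle gene or general epithelial marker did. Across the transcriptome 750 of 16680 tested genes were called higher, which is 4.50%, and 1427 were called lower, which is 8.56%, at an adjusted p under 0.05 in edgeR's quasi-likelihood test. The groups did not overlap for 691 genes with every antibiotic library higher (4.14%) and for 1272 with every antibiotic library lower (7.63%). The median log2 fold change of all tested genes was 0.03.

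Library totals were 13266218 to 18603673 counts in the untreated group and 16304817 to 18073727 counts in the antibiotic group. A count of 3 reads, the floor used here for a gene that is not seen, corresponded to 0.16 to 0.233 CPM (counts scaled to library size with TMM factors) across the libraries. The genes of the engineered alleles did not mark the groups. Tgfbr1 had 48.2 ± 5.71 CPM (SD, n = 5) in untreated and 50.8 ± 6.03 CPM in antibiotic libraries, and Braf had 34.3 ± 2.04 CPM and 32.0 ± 1.92 CPM. Counts per gene cannot tell recombined from intact transcripts, and the stroma carries both genes unrecombined. On a joint scale of the day-30 groups, the Y-linked gene Ddx3y had 37.1 to 50.4 CPM in untreated and 25.5 to 50.6 CPM in antibiotic libraries. Each of these libraries thus held male RNA.

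Antibiotic replicate 3 stood apart from the other 9 libraries. Its correlations with them were 0.948 to 0.967 on the log2 CPM scale, against 0.97 to 0.99 among the others. The adipocyte list summed to 3034 CPM there and to between 98.6 and 199 CPM elsewhere, and 3873 of the 3882 reads of the adipocyte hormone gene Adipoq in the antibiotic group came from it. Its fibroblast and matrix list was at 10880 CPM, against 1566 to 2521 in the others, its macrophage list at 836.6 CPM against 297.9 to 523.8, and its general epithelial list was the lowest of the 10 at 24170 CPM. Without this library 1025 genes were called higher and 1649 lower, of which 687 and 1274 were also called with all 10, and no gene was called in opposite directions. List counts below that moved by over 1.5 times without it are given both ways. In whole tissue, fewer cells of a type and less RNA per cell cannot be told apart.

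**Figure D1:**
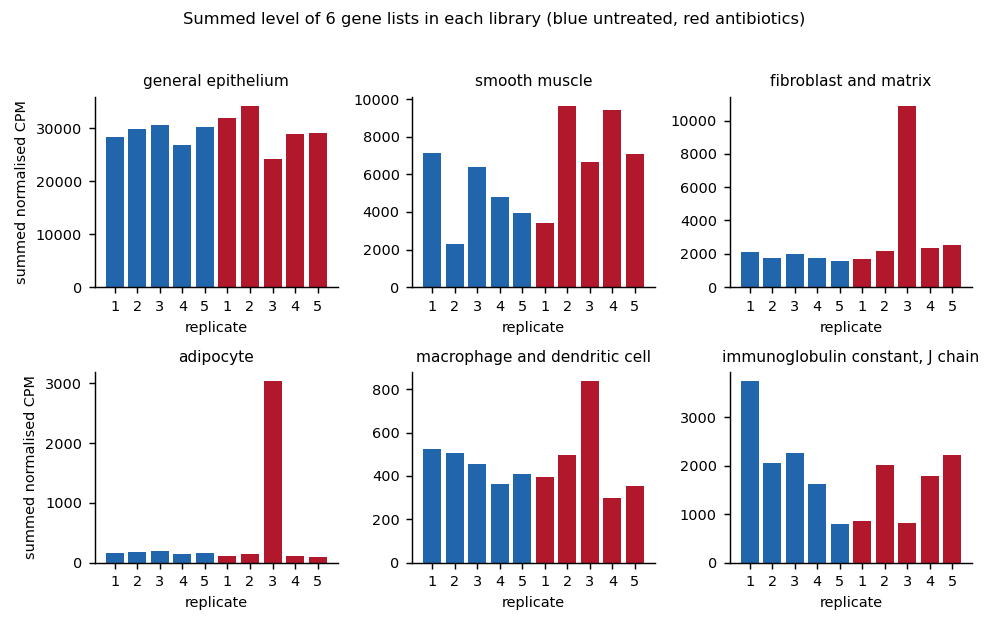
Summed CPM of 6 marker lists in each library, with replicates 1 to 5 of the untreated (blue) and antibiotic (red) group along the horizontal axis of each panel. Antibiotic replicate 3 is far above the others for the adipocyte list at 3034 CPM and the fibroblast and matrix list at 10880 CPM, whereas smooth muscle and immunoglobulin vary widely within both groups.

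Promoter sequences are shown first for 2 of the gene lists, because both are classically controlled by factors that bind short promoter elements. They are from RefSeq on GRCm38.p6, cover the 250 bases before the annotated start and read 5′ to 3′ on the gene's strand. The shares of genes with a match were counted over a longer window that also runs past the start. For the interferon-stimulated genes the letters searched were GAAA, any 2 bases and GAAA on either strand, the core of the interferon-stimulated response element, and capitals mark each match, with overlapping matches running together. The promoters are Isg15 (chr4:156200819-156201068, minus strand), Oas1a (chr5:120907526-120907775, minus strand), Ifit1 (chr19:34640639-34640888, plus strand) and, as a called gene without a match, Irf7 (chr7:141266425-141266674, minus strand).
Isg15: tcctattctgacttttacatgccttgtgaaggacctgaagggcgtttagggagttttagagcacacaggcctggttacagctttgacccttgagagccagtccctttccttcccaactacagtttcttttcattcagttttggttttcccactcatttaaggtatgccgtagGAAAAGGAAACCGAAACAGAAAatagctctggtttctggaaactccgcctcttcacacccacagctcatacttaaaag
Oas1a: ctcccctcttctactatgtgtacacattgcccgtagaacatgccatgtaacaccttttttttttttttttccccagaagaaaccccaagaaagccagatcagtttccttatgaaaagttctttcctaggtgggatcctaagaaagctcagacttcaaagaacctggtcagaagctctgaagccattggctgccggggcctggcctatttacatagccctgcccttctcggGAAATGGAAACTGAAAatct
Ifit1: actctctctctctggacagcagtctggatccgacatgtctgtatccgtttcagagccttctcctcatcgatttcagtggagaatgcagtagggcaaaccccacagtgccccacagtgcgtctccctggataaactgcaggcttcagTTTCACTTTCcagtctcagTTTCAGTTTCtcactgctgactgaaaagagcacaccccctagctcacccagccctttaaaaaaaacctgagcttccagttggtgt
Irf7: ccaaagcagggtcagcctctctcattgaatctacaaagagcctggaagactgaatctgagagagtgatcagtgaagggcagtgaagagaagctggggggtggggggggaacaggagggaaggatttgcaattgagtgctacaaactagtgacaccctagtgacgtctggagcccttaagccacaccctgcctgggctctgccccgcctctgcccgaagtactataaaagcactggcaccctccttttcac
Isg15 held 3 matches, Oas1a 2 and Ifit1 2. Of the 31 interferon-stimulated genes, 22 had a promoter in the table and 14 of these held the element (63.6%), against 3.99% of all 27025 genes with a promoter there. The list was made of known interferon targets, so its contrast with all genes does not bear on the antibiotic response. Among those called lower with antibiotics it was in 4 of 7 (57.1%), no larger a share than in the list.

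For cholesterol synthesis the letters searched were CACCCCAC on either strand, the inner part of the classical sterol regulatory element. The promoter of Hmgcs1 (chr13:119690101-119690350, plus strand), the synthase that opens the mevalonate pathway, is shown with its match in capitals.
Hmgcs1: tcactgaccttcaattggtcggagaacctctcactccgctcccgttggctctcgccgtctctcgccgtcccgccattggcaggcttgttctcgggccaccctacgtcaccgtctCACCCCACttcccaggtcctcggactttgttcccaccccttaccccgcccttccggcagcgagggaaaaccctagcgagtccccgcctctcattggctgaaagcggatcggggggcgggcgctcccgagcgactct
This was 1 of 2 matches among 17 cholesterol genes with a promoter in the table, the other being in Acat2, against 3.30% of all genes in it. The longer form of the sterol element was in none of the 17 and in 0.27% of all genes. The letters for the peroxisome proliferator response element were in none of 23 promoters of fatty acid oxidation genes and in 0.451% of all genes. A match describes letters in a window and no binding was measured.

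**Figure D2:**
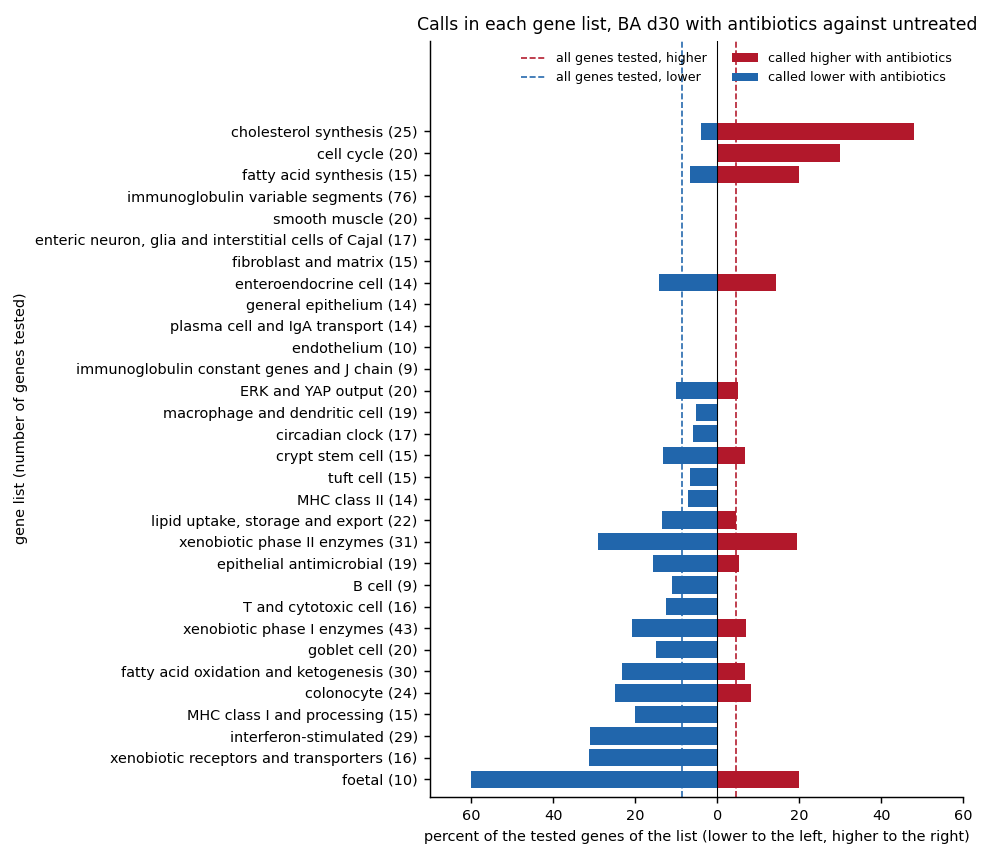
Percent of the tested genes of each list that were called higher (red, to the right) or lower (blue, to the left) with antibiotics, with dashed lines at the values for all tested genes, 4.50% and 8.56%. Cholesterol synthesis reaches 48% to the right with 12 of 25 genes, the foetal list 60% to the left with 6 of 10, and the immunoglobulin and smooth muscle lists hold no call.

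Xenobiotic metabolism was lowered at several leading enzymes but not as a block. Of the 43 tested phase I enzymes, which oxidise, reduce or hydrolyse foreign compounds, 9 were lower and 3 higher, with a median log2 fold change of -0.17, and without antibiotic replicate 3 the counts were 9 and 5, with Aldh3a2 and Ephx1 among the higher genes. Cyp2c55, a cytochrome P450 of the 2C family (chr19:39007019-39042693, plus strand, GRCm38), had 1262, 1926, 989.5, 1586 and 557 CPM in untreated replicates 1 to 5 and 194, 175, 137, 117 and 128 CPM in antibiotic replicates 1 to 5. Every antibiotic library was below every untreated one, and the log2 fold change was -3.08 ± 0.32 (SE, adjusted p = 0.000567). On a joint scale of all day-30 groups, the medians were 6120 CPM in 4 wild-type, 1330 in untreated BA and 136 in antibiotic-treated BA libraries.

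Ces2a, a carboxylesterase, stood at 85.3, 144, 85.5, 211 and 33.3 CPM in untreated and 15.3, 21.2, 23.2, 11.6 and 16.9 CPM in antibiotic libraries. The groups were again apart, with a log2 change of -2.67 ± 0.45 (adjusted p = 0.00484), although untreated replicate 5 came near the treated range and 26.2% of the gene's 36-base windows recur in other genes. Fmo5, a flavin monooxygenase, fell from 163 ± 17.7 to 74.7 ± 16.5 CPM, by 1.12 on the log2 scale (adjusted p = 0.00106). Por, the reductase that passes electrons to all microsomal P450 enzymes, had 290.1, 350.0, 322, 298 and 263 CPM in untreated and 170.5, 204, 189, 152 and 164 CPM in antibiotic libraries. These ranges did not overlap, and its log2 fold change was -0.79 ± 0.10 (adjusted p = 0.000567). Cbr1, a carbonyl reductase, fell by 0.61 (adjusted p = 0.000444), and Cyp2s1, Cyp2d34, Cyp2c65 and Akr1c13 were also lower, the last only with antibiotic replicate 3 included.

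The phase I enzymes that rose were Cyp4b1, Aldh1a7 and Ces2g. Cyp4b1, a P450 that hydroxylates fatty acids and some foreign compounds, had 3.60, 3.65, 5.82, 8.43 and 5.87 CPM in untreated and 37.8, 43.5, 51.8, 10.8 and 34.1 CPM in antibiotic libraries. Antibiotic replicate 4 was much the lowest of its group but still above every untreated library, and the log2 fold change was 2.70 ± 0.41 (adjusted p = 0.00309). On the joint scale the medians were 80.6 CPM in wild-type, 6.18 in untreated BA and 40.4 in antibiotic-treated BA libraries. Aldh1a7, an aldehyde dehydrogenase, rose by 0.65 ± 0.06 (adjusted p = 0.00022). Cyp2e1 had 158 CPM in antibiotic replicate 3 and at most 4.11 CPM in any other library, so its fitted log2 fold change of 4.29 became -2.29 without that library, and neither passed the test.

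Of the 31 tested phase II enzymes, which attach glutathione, glucuronic acid or sulphate, 9 were lower and 6 higher, with a median log2 fold change of -0.04. The glutathione transferases Gsta1, Gsta2, Gsta4, Gstp1, Gstt3 and Mgst2 were lower, by 0.65 on the log2 scale for Gsta1 (from 54.1 ± 5.58 to 34.6 ± 3.98 CPM, adjusted p = 0.00143). Gstm2 and Mgst1, also glutathione transferases, were higher. The glucuronosyltransferases Ugt1a1 and Ugt1a6a were lower, with log2 fold changes of -0.56 and -0.48, and Ugt2b5 was higher with 1.13. Among sulphotransferases Sult1b1 was lower, and Sult1a1, Sult1c2 and Sult2b1 were higher with log2 fold changes of 1.24, 1.00 and 0.61. Gsta1 shares 92.3% of its 36-base windows with other genes and Ugt1a1 81%, so their reads may be split among relatives.

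Of 16 receptors and transporters of foreign compounds, 5 were lower and none higher, and 3 were lower without antibiotic replicate 3. Nr1i2, the pregnane X receptor, had 108, 97.2, 88.1, 98.1 and 105 CPM in untreated and 83.2, 89.0, 80.3, 69.2 and 82.3 CPM in antibiotic libraries. The groups met only where antibiotic replicate 2 passed untreated replicate 3, and the log2 fold change was -0.30 ± 0.07 (adjusted p = 0.0236). The efflux pumps Abcc4, Abcb1a, Abcg2 and Abcc3 were lower with log2 fold changes of -0.52, -0.51, -0.45 and -0.40. Abcb1a and Abcg2 lost the call without antibiotic replicate 3, with adjusted p of 0.0513 and 0.0549. The aryl hydrocarbon receptor gene Ahr was at 19.0 ± 2.18 and 21.0 ± 2.25 CPM (adjusted p = 0.331).

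**Figure D3:**
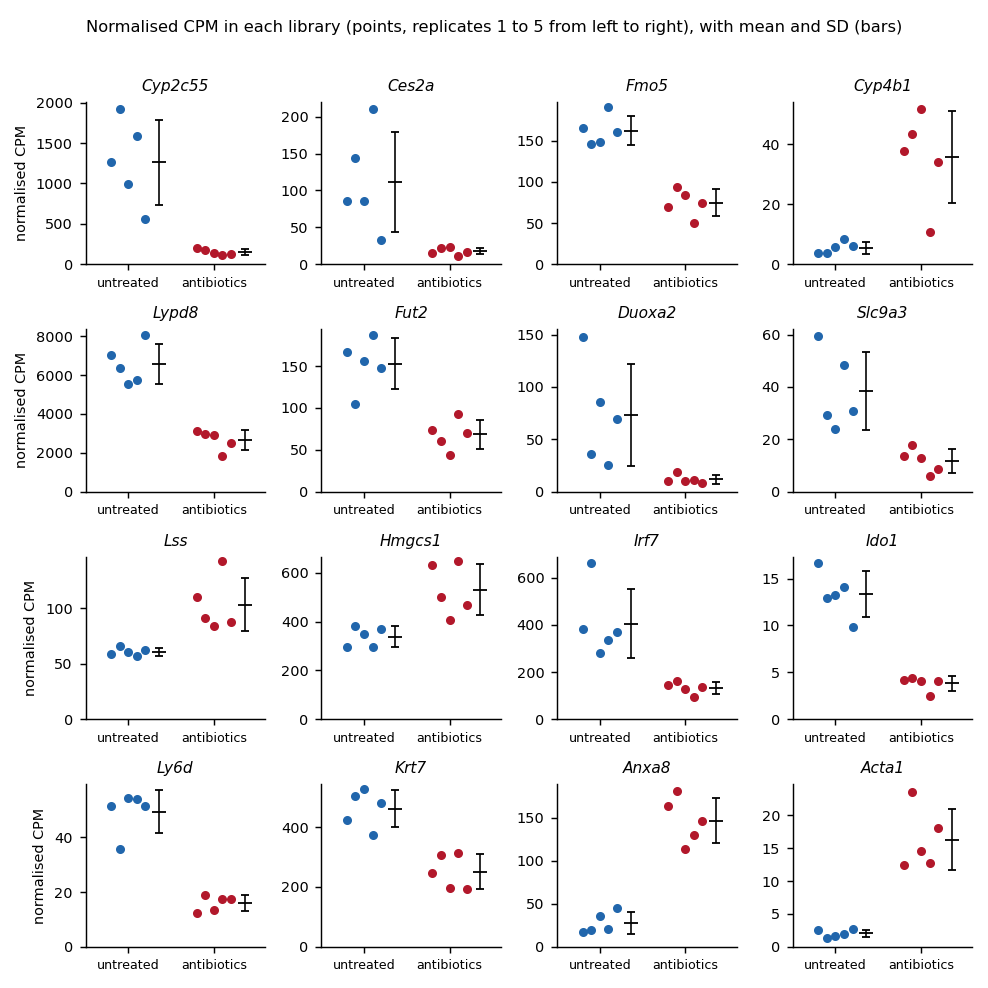
CPM of 16 genes in each library, with untreated libraries in blue and antibiotic libraries in red, and the mean with SD as bars. The groups are apart in every panel, from Cyp2c55, where the antibiotic libraries lie between 117 and 194 CPM, to Acta1, where they lie between 12.4 and 23.6 CPM.

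Lipid metabolism split by pathway. Of 30 tested genes of fatty acid oxidation and ketogenesis, 7 were lower and 2 higher, with a median log2 fold change of -0.10. Cpt1a, which admits long-chain fatty acids to the mitochondrion, had 390.3, 362, 363, 392 and 370.0 CPM in untreated and 244, 298, 254, 255 and 267 CPM in antibiotic libraries. The groups did not overlap, and the log2 fold change was -0.51 ± 0.06 (adjusted p = 0.000634). The peroxisomal enzymes Ehhadh and Acaa1b were lower, with log2 fold changes of -0.63 and -0.99, as were the receptors Ppara (-0.55) and Pparg (-0.30). Acat1 and Bdh1, mitochondrial enzymes of ketone body metabolism, rose by 0.33 and 0.34.

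Among 22 tested genes of lipid uptake, storage and export, 3 were lower (13.6%) and 1 higher (4.55%), against 8.56% and 4.5% of all tested genes. Lipa, the lysosomal acid lipase (chr19:34492318-34527474, minus strand), had 119.6, 123, 108, 129 and 115 CPM in untreated and 61.5, 61.8, 73.9, 57.5 and 59.8 CPM in antibiotic libraries. No library of either group came near the other, and the log2 fold change was -0.92 ± 0.07 (adjusted p = 7.76e-05). Mogat2, which rebuilds triglyceride from absorbed monoacylglycerol, fell by 0.90 (adjusted p = 0.000396), and the lipid droplet coat gene Plin2 by 0.64 (adjusted p = 0.0318). Fabp2, the intestinal fatty acid binding protein, went the other way, from 1313, 1880, 1654, 1418 and 1686 CPM to 2950, 3194, 2548, 2069 and 2809 CPM. All antibiotic libraries were higher, with a log2 change of 0.77 ± 0.13 (adjusted p = 0.00303). The median of this list was 0.14 with all libraries and -0.06 without antibiotic replicate 3, in which the fatty acid translocase gene Cd36 had 189 CPM against 6.51 to 13.1 in the other 9.

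With all 10 libraries, cholesterol synthesis showed the largest share of higher calls among the lists. Of 25 genes 12 were higher and 1 lower, with a median log2 fold change of 0.31, and without antibiotic replicate 3 the count was 14 higher and 1 lower. Without that library the cell cycle list had the larger share, with 18 of 20 genes higher. Lss, which closes the sterol ring, had 58.5, 65.8, 60.2, 57.1 and 62.4 CPM in untreated and 110.0, 91.4, 84.5, 142 and 87.6 CPM in antibiotic libraries. The groups were apart, and the log2 fold change was 0.76 ± 0.13 (adjusted p = 0.0042). Hmgcs1, whose promoter is shown above, rose from 294, 384, 351, 297 and 368 CPM to 631, 502, 408, 649 and 467 CPM. Antibiotic replicate 3 was its lowest treated library and still above every untreated one, with a log2 change of 0.65 ± 0.13 (adjusted p = 0.00949).

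Further along the pathway Pmvk, Idi1, Fdps, Fdft1, Cyp51, Tm7sf2, Hsd17b7 and Mvk were also higher, with log2 fold changes between 0.36 and 0.74. Acat2, with a log2 ratio of 0.43, lost the call without antibiotic replicate 3 (adjusted p = 0.0553). Idi1, Fdps and Acat2 share 26.5%, 27.6% and 42.3% of their 36-base windows with other genes. The regulator gene Srebf2 was at 331 ± 17.0 and 316 ± 34.8 CPM (adjusted p = 0.574).

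The gene of the pathway that fell was Dhcr7, which reduces 7-dehydrocholesterol in the last step. It had 97.6, 109.7, 104, 113 and 98.3 CPM in untreated and 63.9, 69.2, 51.1, 54.1 and 50.7 CPM in antibiotic libraries. The groups did not overlap, and the log2 fold change was -0.85 ± 0.09 (adjusted p = 0.00029). Of 15 genes of fatty acid synthesis, Elovl1, Scd2 and Srebf1 were higher and Elovl6 lower, the last only with antibiotic replicate 3 included, and without it 2 others, Me1 and Fads3, were lower. Scd1, a desaturase abundant in fat, had 2957 CPM in that library and 43.0 to 68.8 CPM in the others. Among 7 tested genes of bile acid handling, Nr1h4, the bile acid receptor FXR, fell from 67.0 ± 10.3 to 44.8 ± 4.54 CPM, by 0.58 (adjusted p = 0.00532), and Fgfr4 by 0.33 (adjusted p = 0.00762).

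**Figure D4:**
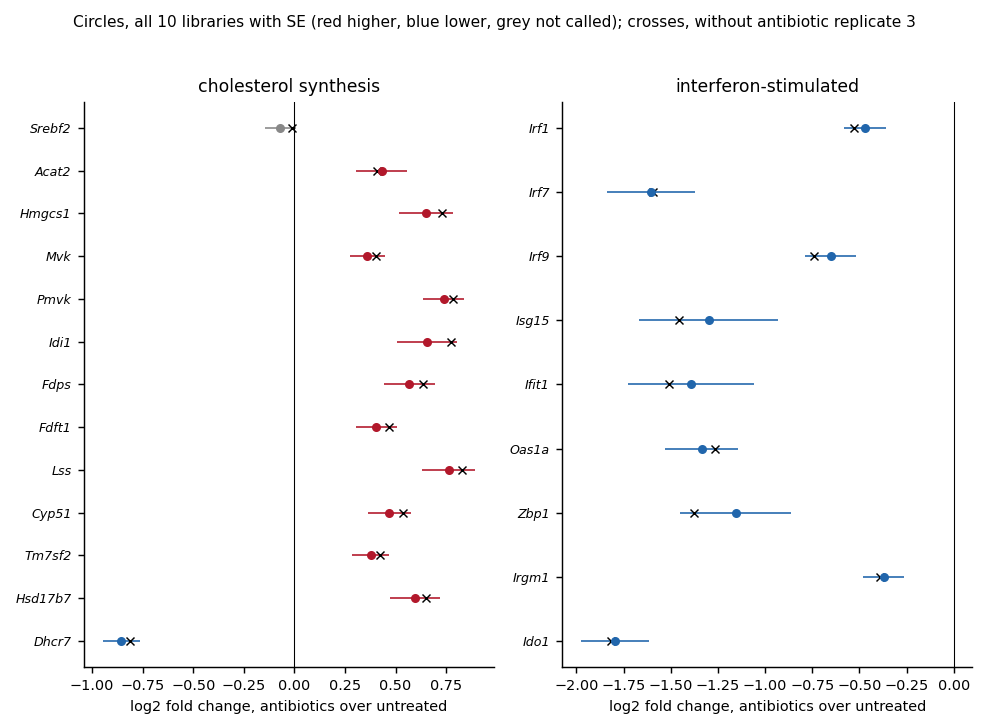
Log2 fold change with SE of the named genes of cholesterol synthesis (left) and of the interferon-stimulated list (right), with red circles called higher, blue circles called lower and grey circles not called. Crosses give the value without antibiotic replicate 3, where Irf7 was at -1.59 and Ido1 at -1.82.

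Interferon-stimulated genes were lowered without exception among those called. Of 29 tested genes 9 were lower and none higher, with a median log2 fold change of -0.41, and without antibiotic replicate 3 the count was 13 lower with a median of -0.74. Irf7, the transcription factor that amplifies type I interferon, had 384, 661, 279, 337 and 369 CPM in untreated and 147, 161, 130.1, 92.6 and 137 CPM in antibiotic libraries. The groups were apart, and the log2 fold change was -1.605 ± 0.23 (adjusted p = 0.00243). Ido1, which degrades tryptophan to kynurenine, had 16.6, 12.9, 13.3, 14.1 and 9.80 CPM and 4.17, 4.42, 4.06, 2.45 and 4.11 CPM. Every antibiotic library was below 5 CPM and every untreated one above 9, with a log2 change of -1.79 ± 0.18 (adjusted p = 0.00022).

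The antiviral genes whose promoters are shown above were also lower. Oas1a, an oligoadenylate synthetase, had 20.5, 24.98, 10.7, 19.6 and 18.4 CPM in untreated and 7.63, 8.47, 5.98, 7.02 and 8.34 CPM in antibiotic libraries. Its groups were apart, with a log2 change of -1.33 ± 0.19 (adjusted p = 0.00158), and 65.7% of its 36-base windows recur in Oas1g. Ifit1, which binds foreign RNA, fell by 1.39 ± 0.34 (adjusted p = 0.0218), and Isg15, a ubiquitin-like protein, by 1.30 ± 0.37 (adjusted p = 0.0411). The groups overlapped for Isg15, whose untreated libraries ranged from 2.64 to 10.7 CPM and antibiotic libraries from 1.49 to 3.26 CPM. Zbp1, Irf9, Irf1 and Irgm1 completed the calls, with log2 fold changes of -1.16, -0.65, -0.47 and -0.37. Isg15 and Irgm1 each lost the call under 11 alternatives, with adjusted p of up to 0.0987 and 0.123.

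MHC class II genes present antigen from B cells, macrophages, dendritic cells and some epithelium. Of 14 tested, 1 was called lower (7.14%, against 8.56% of all tested genes), with a median log2 fold change of -0.13. That gene was Ctss, the protease that trims the invariant chain, with 233, 201, 197, 232 and 218 CPM in untreated and 144, 127, 171, 94.0 and 122 CPM in antibiotic libraries. Its groups did not overlap, and the log2 fold change was -0.72 ± 0.13 (adjusted p = 0.00596). H2-Aa, an α chain, had 163, 132, 110.2, 134 and 101 CPM in untreated and 102, 109, 216, 86.1 and 114 CPM in antibiotic libraries. Antibiotic replicate 3 was the highest of all 10, and the log2 fold change was -0.03 (adjusted p = 0.947) with it and -0.32 (adjusted p = 0.151) without it. The invariant chain gene Cd74 was at 329.6 ± 75.8 and 293 ± 92.9 CPM (adjusted p = 0.619), and 2 class II genes were lower without antibiotic replicate 3.

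Of 15 genes of MHC class I and its peptide supply, the proteasome activator genes Psme1 and Psme2 and the aminopeptidase gene Erap1 were lower, with log2 fold changes of -0.34, -0.34 and -0.27. That was 20% of the list, against 8.56% of all tested genes. Here a single library decided the count, since 10 were lower without antibiotic replicate 3. B2m, the light chain of class I, had 223, 214, 170.3, 196 and 204 CPM in untreated and 144, 162, 317, 142 and 145 CPM in antibiotic libraries. The other 4 treated libraries were all below the untreated range, and the log2 fold change was -0.15 (adjusted p = 0.682) with all 10 libraries and -0.45 (adjusted p = 0.00309) without antibiotic replicate 3. The macrophage list moved with that library too, with 1 of 19 genes lower with all 10 libraries and 10 of 19 without it.

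No immunoglobulin gene passed the test. The 9 tested constant genes and J chain had a median log2 fold change of -0.46, and the 76 tested of 348 variable segments a median of -0.43, with no call in either list with or without antibiotic replicate 3. Igha, the constant region of IgA, had 2204, 1179, 1309, 921 and 442 CPM in untreated and 473, 1234, 399, 984 and 1259 CPM in antibiotic libraries. Of the antibiotic libraries, 4 lay within the untreated range and 1, at 399 CPM, below it, and the log2 fold change was -0.48 ± 0.45 (adjusted p = 0.499). Igkc, the κ light chain constant region, ranged from 194 to 1016 CPM in untreated and from 226 to 665 CPM in antibiotic libraries (adjusted p = 0.542), and Jchain, which joins IgA dimers, at 219 ± 95.9 and 173 ± 75.3 CPM (adjusted p = 0.583). Pigr, the epithelial receptor that carries IgA to the lumen, was at 878 ± 327 and 719.8 ± 87.8 CPM (adjusted p = 0.37). Of 9 tested B cell genes, 1 was lower (11.1%, against 8.56% of all tested genes), the chemokine gene Cxcl13 (-1.57, adjusted p = 0.0275). Without antibiotic replicate 3 the count was 2 lower and 1 higher.

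Smooth muscle genes were not called in either direction, although all 20 had positive log2 fold changes with a median of 0.59. Myh11, the smooth muscle myosin heavy chain, had 1096, 242, 931, 620.0 and 534 CPM in untreated and 440.3, 1412, 817, 1435 and 1089 CPM in antibiotic libraries. The groups overlapped widely, and the log2 fold change was 0.60 ± 0.42 (adjusted p = 0.355). The summed list ranged from 2307 to 7163 CPM in untreated and from 3423 to 9646 CPM in antibiotic libraries, with untreated replicate 2 and antibiotic replicate 1 the lowest of their groups. The 17 genes of enteric neurons, glia and interstitial cells of Cajal had a median of 0.47 and no call.

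Acta1, the skeletal muscle α-actin, was the exception among muscle genes. It had 2.53, 1.37, 1.71, 1.91 and 2.66 CPM in untreated and 12.4, 23.6, 14.5, 12.8 and 18.1 CPM in antibiotic libraries. The groups were far apart, with a log2 change of 2.99 ± 0.23 (adjusted p = 6.36e-05). Whether Acta1 followed the muscle content of the libraries was not tested. The 5 tested genes of the skeletal muscle list all had positive log2 fold changes, with a median of 0.64, and no other was called. Ckm, the muscle creatine kinase, was at 7.20 ± 3.80 and 12.6 ± 5.64 CPM (adjusted p = 0.275), Tnni2, a fast troponin I, at 12.3 ± 3.01 and 13.7 ± 2.45 CPM (adjusted p = 0.603) and the light chain gene Mylpf at 1.19 ± 0.335 and 1.42 ± 0.290 CPM (adjusted p = 0.492). Myh4 and Pvalb had no read in any of the 10 libraries. Wild-type libraries had a median of 5.16 CPM of Acta1 on the joint scale, against 2.02 in untreated and 14.4 in antibiotic-treated BA libraries.

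General epithelial genes held no call among 14, their median log2 fold change was -0.01, and Epcam was at 2338 ± 215 and 2388 ± 381 CPM (adjusted p = 0.873). Of 24 colonocyte genes, 6 were lower (25%) and 2 higher (8.33%), against 8.56% and 4.5% of all tested genes. Most of those called were transporters of ions and small molecules. Slc9a3, the sodium-proton exchanger NHE3, had 59.4, 29.1, 24.0, 48.5 and 30.7 CPM in untreated and 13.8, 17.7, 12.8, 5.80 and 8.75 CPM in antibiotic libraries. The groups did not overlap, and the log2 fold change was -1.71 ± 0.34 (adjusted p = 0.0105). Its partner in salt absorption, the chloride-bicarbonate exchanger gene Slc26a3, fell from 442 ± 67.7 to 248 ± 49.8 CPM, by 0.84 (adjusted p = 0.00404).

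Slc16a1, which takes up butyrate, fell by 0.61 (adjusted p = 0.000908), and Slc26a2, Muc13 and Mep1a were lower with log2 fold changes of -0.44, -0.64 and -0.37. The subunit genes of the epithelial sodium channel moved the other way. Scnn1g had 0.569, 0.228, 0.853, 0.751 and 0.498 CPM in untreated and 1.17, 3.10, 2.83, 1.54 and 1.82 CPM in antibiotic libraries. The antibiotic libraries were all higher at low counts, and the log2 fold change was 1.86 ± 0.36 (adjusted p = 0.00684). Scnn1b rose by 1.05 (adjusted p = 0.0134), and Scnn1a, the α subunit, was at 44.2 ± 9.32 and 50.5 ± 8.15 CPM (adjusted p = 0.415).

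Among 19 genes of epithelial defence, 3 were lower (15.8%) and 1 higher (5.26%), against 8.56% and 4.5% of all tested genes. Without antibiotic replicate 3 the lower count was 5, with Saa3 and Il18 added. Lypd8, a secreted protein that binds flagella and keeps bacteria off the colonic surface, had 7060, 6371, 5569, 5738 and 8058 CPM in untreated and 3124, 2990, 2916, 1832 and 2490 CPM in antibiotic libraries. The groups were far apart, with a log2 change of -1.30 ± 0.15 (adjusted p = 0.000534). Fut2, which fucosylates the epithelial glycans that bacteria use, fell from 153 ± 30.6 to 68.3 ± 17.7 CPM, by 1.16 (adjusted p = 0.00522). Duoxa2, the maturation factor of the peroxide-producing oxidase Duox2, had 148, 35.9, 85.5, 25.1 and 69.7 CPM in untreated and 9.92, 19.0, 10.2, 11.0 and 8.10 CPM in antibiotic libraries. The untreated spread was wide but lay wholly above the treated range, with a log2 change of -2.65 ± 0.48 (adjusted p = 0.00707), and 42.8% of its exon bases overlap Duoxa1 on the opposite strand.

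Duox2 itself had 326 ± 187 and 139 ± 41.9 CPM (adjusted p = 0.056). The C-type lectin gene Reg3b had 2.34, 0.114, 20.4, 2.08 and 45.3 CPM in untreated and 0.470, 2.65, 1.28, 0.638 and 0.117 CPM in antibiotic libraries. Untreated replicates 3 and 5 alone were high, and the log2 fold change of -3.77 ± 1.30 did not pass the test (adjusted p = 0.0858). Sprr2h, a small proline-rich protein gene, rose by 1.03 ± 0.15 (adjusted p = 0.00167).

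Secretory lineages changed at few genes. Of 20 goblet cell genes, the O-glycan enzymes B3gnt6, Galnt3 and Galnt12 were lower (15%, against 8.56% of all tested genes). Their log2 fold changes were -0.73, -0.49 and -0.40, and the mucin gene Muc2 was at 3534 ± 576 and 2855 ± 445 CPM (adjusted p = 0.15). Of 14 enteroendocrine genes, the hormone genes Gcg and Sct were higher and Nts and the transcription factor gene Pax6 were lower. Each direction held 14.3% of the list, against 4.5% higher and 8.56% lower among all tested genes. Gcg, which encodes GLP-1, had 23.9, 22.8, 25.5, 22.6 and 24.1 CPM in untreated and 34.1, 38.5, 33.8, 27.9 and 35.5 CPM in antibiotic libraries. The groups were apart, with a log2 change of 0.52 ± 0.08 (adjusted p = 0.00239). Of 15 tuft cell genes, Avil was lower (-0.68, adjusted p = 0.0141), a share of 6.67% against 8.56% of all tested genes.

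Stem cell genes held calls at rates near those of all tested genes. Of 15, Sox9 and Ephb2 were lower (13.3%, against 8.56%) and Smoc2 was higher (6.67%, against 4.5%). Ephb2 lost the call without antibiotic replicate 3, and Smoc2 lost it under 8 alternatives. Sox9, a transcription factor of the crypt base, had 34.2, 32.5, 30.09, 32.0 and 29.2 CPM in untreated and 26.2, 17.0, 17.4, 25.7 and 19.2 CPM in antibiotic libraries, with a log2 change of -0.58 ± 0.13 (adjusted p = 0.0121). Its groups did not overlap, while the stem cell receptor gene Lgr5 was at 5.18 ± 1.08 and 4.35 ± 1.63 CPM (adjusted p = 0.547). All 20 cell cycle genes had positive log2 fold changes, with a median of 0.33. Of these 6 were called higher with all libraries and 18 without antibiotic replicate 3, which had the lowest sum of the treated group at 904.2 CPM against 1139 to 1308. Mki67, a marker of cycling cells, had 116, 134, 118, 123 and 122 CPM in untreated and 189.8, 138, 115, 167 and 168 CPM in antibiotic libraries. Only antibiotic replicate 3 fell below the untreated range, and the log2 fold change was 0.34 (adjusted p = 0.0738) with it and 0.43 (adjusted p = 0.00492) without it.

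With all 10 libraries, the foetal list, of genes expressed in foetal and regenerating epithelium, had the largest share of lower calls, with 6 of 10 lower and 2 higher. Without antibiotic replicate 3 it had 5 of 10 lower, a smaller share than MHC class I with 10 of 15 and the macrophage list with 10 of 19. Several genes of the foetal list are ones the study itself followed in this tissue, so that list is not independent evidence of a direction. Ly6a, which encodes Sca-1, had 452, 556, 507, 444 and 534 CPM in untreated and 245, 266, 248, 373 and 268 CPM in antibiotic libraries. The groups were apart, with a log2 change of -0.83 ± 0.12 (adjusted p = 0.00131). Its medians on the joint scale were 48.7 CPM in wild-type, 539 in untreated BA and 284 in antibiotic-treated BA libraries, so that the treated libraries remained above the wild-type range of 43.9 to 60.9 CPM.

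Ly6d, of the same family, had 51.6, 35.7, 54.4, 53.9 and 51.4 CPM in untreated and 12.3, 19.0, 13.4, 17.6 and 17.4 CPM in antibiotic libraries. The groups did not overlap, and the log2 fold change was -1.63 ± 0.15 (adjusted p = 0.000138). The simple keratin gene Krt7 fell from 462 ± 61.9 to 251 ± 57.5 CPM, by 0.88 (adjusted p = 0.00467), and Anxa5, Ly6e and Ly6c1 were lower with log2 fold changes of -0.34, -0.39 and -0.89. Ly6c1 lost the call without antibiotic replicate 3 (adjusted p = 0.0858), and over all alternatives Ly6e lost it under 12 and Ly6c1 under 11.

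The annexin gene Anxa8 rose, although it is on the same foetal list. It had 16.6, 19.8, 35.98, 20.6 and 45.3 CPM in untreated and 163, 181, 114, 129.7 and 146 CPM in antibiotic libraries. The lowest treated library was above the highest untreated one by a wide margin, and the log2 fold change was 2.41 ± 0.28 (adjusted p = 0.000947). On the joint scale the medians were 2.16 CPM in wild-type, 21.8 in untreated BA and 155 in antibiotic-treated BA libraries. With antibiotics the median of Anxa8 thus lay further from the wild-type median and that of Ly6a nearer to it, and neither distance was tested. Anxa1 rose by 0.41 ± 0.11 (adjusted p = 0.0326), a call lost under 8 alternatives, with an adjusted p of up to 0.27. Of 20 genes of ERK and YAP output, 10% were lower and 5% higher, near the 8.56% and 4.5% of all tested genes. The EGF-family ligand gene Ereg and the ERK phosphatase gene Dusp6 were lower, with log2 fold changes of -0.95 and -0.72. The YAP target Amotl2 was higher with 0.76. Amotl2 lost the call under 11 alternatives and stood at 0.51 without antibiotic replicate 3, where Dusp4 was also called higher, making 2. Ccn2, another YAP target, was at 15.2 ± 4.54 and 29.2 ± 12.1 CPM (adjusted p = 0.075).

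Immune cell lists held few calls. Gzmb, the granzyme of cytotoxic cells, had 1.83, 0.913, 1.94, 1.33 and 1.50 CPM in untreated and 0.352, 0.379, 0.320, 0.319 and 0.117 CPM in antibiotic libraries. All treated libraries were lower, and the log2 fold change was -2.30 ± 0.31 (adjusted p = 0.000972), whereas Cd3e, part of the T cell receptor complex, was at 1.37 ± 0.213 and 1.10 ± 0.145 CPM (adjusted p = 0.328). Il1b, the inflammatory cytokine, had 6.63, 9.35, 4.50, 4.56 and 4.93 CPM in untreated and 1.70, 1.01, 9.13, 0.585 and 0.587 CPM in antibiotic libraries. Only antibiotic replicate 3 reached the untreated range, and the log2 fold change was -1.19 ± 0.73 (adjusted p = 0.291) with it and -2.63 (adjusted p = 0.000824) without it. The myeloid genes Csf3r and Lyz2 gave log2 fold changes of 0.18 and 0.01 with all libraries and -1.50 and -0.71 without antibiotic replicate 3, with adjusted p of 0.0037 and 0.00745 in the latter fit.

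**Figure D5:**
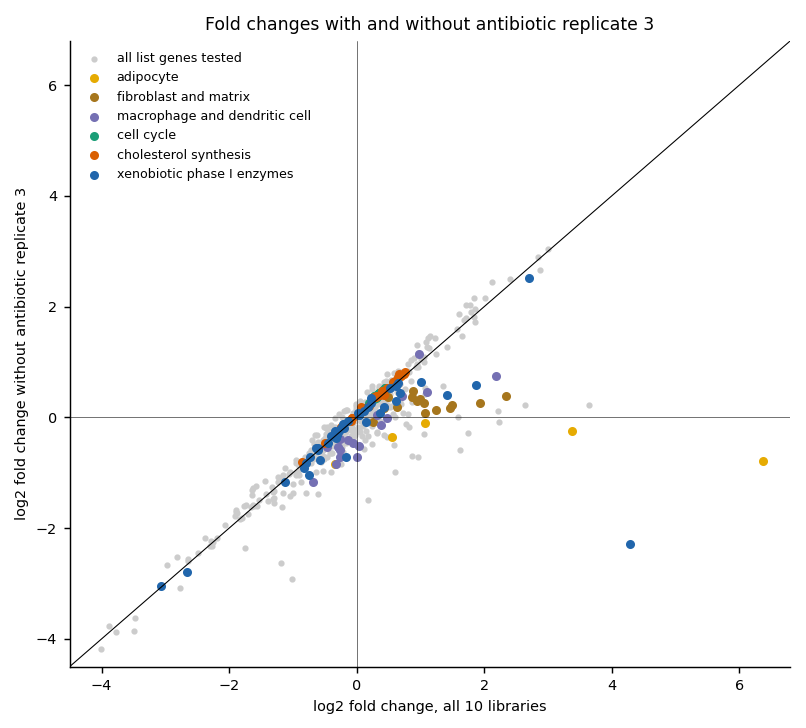
Log2 fold change of every tested gene of the lists with all 10 libraries (horizontal axis) and without antibiotic replicate 3 (vertical axis), with 6 lists in colour and a diagonal where both are equal. Xenobiotic and cholesterol genes lie along the diagonal apart from Cyp2e1, at 4.29 and -2.29, whereas adipocyte, fibroblast and macrophage genes lie below it.

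Across all tested genes, the 12 with the largest increase among called genes whose average log2 CPM reached 1 and whose groups lay wholly apart were Acta1, Ada, Rnase1, Cyp4b1, Anxa8, Gm18599, Gm8221, Gm26616, Slc37a2, Calcb, Ibsp and Ccdc87. Ada, adenosine deaminase (chr2:163726584-163750239, minus strand), had 40.2, 23.7, 42.8, 16.4 and 46.7 CPM in untreated and 213, 348, 385, 72.4 and 225 CPM in antibiotic libraries. Antibiotic replicate 4 was the lowest treated library and above all untreated ones, and the log2 fold change was 2.87 ± 0.46 (adjusted p = 0.00398). Rnase1, a secreted ribonuclease, had 9.22, 6.27, 9.07, 5.37 and 12.01 CPM and 58.5, 128, 52.4, 17.7 and 45.7 CPM, again with antibiotic replicate 4 the lowest of its group, and a log2 fold change of 2.85 ± 0.48 (adjusted p = 0.00507). From Gm18599 to Ccdc87 in that order the log2 fold changes lay between 1.58 and 2.01, among them those of the sugar-phosphate transporter gene Slc37a2 (1.80) and Calcb, which encodes a calcitonin gene-related peptide (1.72).

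The corresponding 12 lower genes were Gm12551, Trim6, Serpina3k, Cyp2c55, Ggt1, Ces2a, Duoxa2, Sema3e, Syt16, Gm15998, Efna3 and Mmp13. Trim6, a ubiquitin ligase (chr7:104218793-104235152, plus strand), had 9.73, 10.0, 10.8, 10.6 and 7.20 CPM in untreated and 1.17, 0.695, 1.602, 0.372 and 0.411 CPM in antibiotic libraries. The treated libraries were all below 2 CPM, and the log2 fold change was -3.49 ± 0.34 (adjusted p = 0.00022). Ggt1, which cleaves glutathione outside the cell, had 30.26, 46.5, 37.8, 24.9 and 32.0 CPM and 3.76, 7.39, 8.65, 1.65 and 3.70 CPM, with the groups apart and a log2 fold change of -2.77 ± 0.39 (adjusted p = 0.00201). Mmp13, a collagenase, fell by 2.19 ± 0.32 (adjusted p = 0.00199).

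Efna3, an ephrin, and the antisense gene Gm15998 overlap on chromosome 3 and fell together, by 2.25 ± 0.22 and 2.27 ± 0.17 on the log2 scale. Efna3 had 9.29, 9.47, 8.38, 8.72 and 8.97 CPM in untreated and 2.76, 2.21, 1.92, 0.958 and 1.58 CPM in antibiotic libraries, far apart and with little spread. The strand setting of the counting is not given in the sources used here, so that reads of the overlapping exons cannot be told apart. The pseudogene Gm12551, with the largest fall at -4.00 ± 0.30 (adjusted p = 5.53e-05), shares 19.4% of its 36-base windows with Plin2. Serpina3k and Sema3e lost the call without antibiotic replicate 3, with adjusted p of 0.0547 and 0.0552.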

How the data were processed

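RNA from whole proximal colon of BA mice at day 30, in 5 antibiotic-treated and 5 untreated libraries, was sequenced by the authors on a NextSeq 500 as paired 36-base reads. Per the submitters' processing notes and the study's methods, reads were checked with FastQC 0.11.8, trimmed with Trim Galore 0.6.4, aligned to GRCm38 with HISAT2 2.1.0 and counted with featureCounts 1.6.4. The authors deposited raw counts per gene, with no normalisation, in a table of 55421 genes. The strand setting of the counting is not given in the sources used here.

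Genes were filtered with filterByExpr, scaled by TMM and tested with edgeR 4.0.16 (glmQLFit with robust = TRUE, glmQLFTest, two-sided) on the 10 libraries alone, with Benjamini-Hochberg adjustment over 16680 genes and a threshold of 0.05. CPM values are TMM-scaled, and log2 fold changes are antibiotic over untreated. R 4.3.3, limma 3.58.1, DESeq2 1.42.0, Python 3.11.15, pandas 2.3.3 and matplotlib 3.10.9 were used. The fit was tested on simulated counts for this comparison over 16680 genes, in which it recovered 93 of 100 genes changed by 1 on the log2 scale and 97 of 100 changed by 2, with 5% of calls false. The changed genes were drawn only from those with a mean above 5 CPM, and no deviant library was simulated. Recovery at lower levels, or with a library such as antibiotic replicate 3, was therefore not measured. Wild-type levels come from a joint scaling of the 5 day-30 groups. Library totals ran from 13266218 to 18603673 counts, so that 3 reads corresponded to at most 0.233 CPM, a floor that covers counting error only.

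The members, lists and tests were chosen with earlier results of these data known. Genes were named from the lists, with defining genes and the largest called changes first, and as the 12 most increased and 12 most decreased called genes whose average log2 CPM reached 1 and whose groups lay wholly apart. Alternatives were RLE scaling, TMM without immunoglobulin and mitochondrial genes, DESeq2, limma-voom, no filter on low counts, a fit of all 5 day-30 groups together, a block for the replicate number, and leaving out each library. The equal replicate numbers of the groups do not pair libraries, since a mouse was either treated or untreated and same-numbered libraries had correlations of deviations from -0.3 to 0.07. Gene positions are GRCm38, and shared sequence is the share of 36-base exon windows found in the exons of other genes. The results do not give this share for every named gene. It was also 60.6% for Gm8221, 57.8% for Gsta2, 52.7% for Ugt1a6a and 51.7% for Ugt2b5. For Acaa1b, Ly6c1, Gstp1 and Ly6a it was 47%, 42.9%, 37.2% and 28.8%. Single-gene results of some list members are not reported here, although the list counts include them.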

Additional observations from a re-analysis of the deposited data

Results flagged for a closer look

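For each named gene, the gap between the highest or lowest library and its nearest neighbour was divided by the range of its group of 5. This ratio passed Dixon's limit in 38 of 358 groups. The limit flags about 1 in 20 by chance for independent, normally distributed values, which CPM of related genes need not be. Some genes, such as Cyp2e1 and Scd1, were named for their value in antibiotic replicate 3, so the count depends partly on that choice. The pattern that recurred was antibiotic replicate 3, the library with the adipocyte, fibroblast and macrophage excess, and what part that excess had in these values was not tested.

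In antibiotic replicate 3 the highest values set apart were those of Cyp2e1 (ratio 0.994), Scd1 (0.991), Cd36 (0.964), Csf3r (0.954), Saa3 (0.951), B2m (0.888), Me1 (0.877), Lyz2 (0.873), Il1b (0.869), Fpr1 (0.789), H2-Aa (0.782), Il18 (0.779) and Lipa (0.74), and the lowest those of Anxa1 (0.907) and Galnt3 (0.82). Lipa there had 73.9 CPM, still below every untreated library.

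Other antibiotic libraries were set apart for single genes. Replicate 4 was highest for Slc37a2 (0.864), Ly6a (0.82), Ppara (0.742) and Tnni2 (0.734) and lowest for Ido1 (0.815). Replicate 1 was highest for Erap1 (0.835) and Ibsp (0.831), replicate 2 was highest for Sema3e (0.776) and Duoxa2 (0.734), and replicate 5 was lowest for Gzmb (0.771).

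Among untreated libraries, replicate 2 was highest for Pax6 (0.898), Scd2 (0.766) and Irf7 (0.724) and lowest for Ly6d (0.837). Replicate 5 was lowest for Ccn2 (0.779), Abcb1a (0.726) and Srebf2 (0.724) and highest for Scd1 (0.751). Replicate 1 was highest for Sema3e (0.804) and Pigr (0.737), replicate 3 for Mmp9 (0.761), and replicate 4 for Galnt3 (0.748) and Nts (0.725).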

How the results depend on the processing

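The count of genes called higher, 750, was 1169 with DESeq2 and 384 with all 5 day-30 groups fitted together, and the count called lower, 1427, was 646 in the latter. With the replicate number as a block 347 genes were called higher and 993 lower, but the numbers mark no pairing, and no replicate correlated best with its own number. Leaving out each library gave 392 to 1025 genes called higher and 926 to 1649 lower. The higher count moved by over 1.5 times without untreated replicate 1 (462) or 4 (409) or antibiotic replicate 4 (472) or 5 (392), and the lower count fell to 928 without untreated replicate 2 and 926 without antibiotic replicate 5. RLE scaling, limma-voom, TMM without immunoglobulin and mitochondrial genes and no filter on low counts kept both counts within 1.5 times. Of 137 named genes called, 58 were called under every alternative and 79 lost the call under at least 1. Those that lost it most often were Akr1c13 under 13, Ephb2 and Ly6e under 12, Abcg2, Elovl6, Ly6c1, Isg15, Irgm1, Acat2 and Amotl2 under 11, and Abcb1a and Nts under 10. Anxa1, Mmp9, Prdx1, Scd2 and Smoc2 lost it under 8, and Bdh1, Ctla4, Mgst1, Plin2, Serpina3k and Srebf1 under 7. Over all alternatives the log2 fold changes ranged from -1.50 to 0.44 for Csf3r and from -0.71 to 0.19 for Lyz2, negative and called without antibiotic replicate 3. The cause was not tested. Depth limits statements on genes near the 3-read floor, such as Scnn1g and Gzmb.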

Other observations

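The peroxiredoxin gene Prdx6, which is on none of the lists and whose product reduces lipid peroxides, had 1645, 1672, 1378, 1635 and 1325 CPM in untreated and 484, 474, 425, 414 and 351 CPM in antibiotic libraries, a log2 change of -1.83 ± 0.10 (adjusted p = 1.66e-05). No library of either group approached the other. Prdx6b, a related gene on chromosome 2, fell by 1.88 ± 0.23 (adjusted p = 0.000633), from 12.3 ± 2.66 to 3.35 ± 1.13 CPM, and shares 1.61% of its 36-base windows with other genes. Both genes were chosen after their values were seen. Of the other members of the family, Prdx5, 19.1% of whose exon bases overlap Trmt112 on the opposite strand, was also lower at -0.77 (adjusted p = 0.00143), as was Prdx1 at -0.25 (adjusted p = 0.0233), a call lost under 8 alternatives, and Prdx2, Prdx3 and Prdx4 were not called, with -0.10, 0.00 and 0.12.

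Of 17 circadian clock genes, Npas2 was lower (-0.62, adjusted p = 0.00538) and no other was called. That was 5.88% of the list, against 8.56% of all tested genes, and without antibiotic replicate 3 there were 2, with Cry2. Of 6 tested neutrophil genes, the chemotactic receptor gene Fpr1 was lower (-1.75, adjusted p = 0.0246) and the protease gene Mmp9 higher (1.42, adjusted p = 0.0276). Each direction held 16.7% of the list, against 8.56% lower and 4.5% higher among all tested genes. Fpr1 lost the call under 6 alternatives and Mmp9 under 8. Without antibiotic replicate 3 Csf3r made the lower count 2. Of 16 tested T and cytotoxic cell genes, Ctla4 was lower beside Gzmb (-1.42, adjusted p = 0.0363). Together they were 12.5% of the list, against 8.56% of all tested genes, and Ctla4 lost the call under 7 alternatives.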
